A study of Mus musculus with 15 samples.

Results

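Molecular chaperones named heat shock proteins and J-domain proteins were described in RNA from mouse regulatory T cells (Treg) and conventional CD4 T cells (Tconv). The genes were taken by name from the table of gene levels: the Hspa, Hspb, Hspd, Hspe, Hsph and Hsp90 symbols and the Dnaja, Dnajb and Dnajc symbols, without pseudogenes and without Hspg2. This gave 71 of 17594 genes, 28 with a heat shock name and 43 with a J-domain name. Hspbp1, Hspbap1 and Hspb11 entered by name only: the first binds Hsp70, the next binds the small heat shock protein Hspb1, and Hspb11 is a protein of intraflagellar transport.

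Hsp70 chaperones bind unfolded stretches of protein and release them in a cycle driven by ATP, J-domain proteins bring them their clients and start that cycle, and Hsp110 proteins exchange the nucleotide. Hsp90 chaperones act later, on nearly folded clients such as kinases and receptors, and the chaperonin pair Hspd1 and Hspe1 forms a folding chamber in mitochondria. Heat and other protein damage raise many of these genes through the transcription factor Hsf1, while a load of unfolded protein in the endoplasmic reticulum raises the chaperones of that compartment through the factors Atf6 and Xbp1.

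Both cell types came from spleens of C57BL/6 mice by cell sorting. In the knockout (KO) groups, mice with a conditional allele of Hpgd, the gene of the enzyme that breaks down prostaglandin E2, had been crossed to mice with FOXP3-Cre-YFP. That driver limits the deletion to cells that express Foxp3, so it is aimed at Treg, and Tconv KO are Tconv from the crossed animals. The wild-type (WT) groups came from control animals, and the labels do not say whether these carried the Cre or how old any animal was. Treg gave 4 libraries of each genotype, and Tconv gave 3 WT and 4 KO libraries. By sample number, each Tconv library stands next to a Treg library of its genotype (Treg 490 is left without such a neighbour), but whether neighbours came from one animal is not stated. As no label ties a library to an animal, p-values measure the spread between these samples, which may in part be technical.

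Libraries held 2.64 to 11.1 M reads, and the KO libraries were mostly the shallower ones (2.64 to 10.3 M against 6.43 to 11.1 M). The mean normalized read count of Foxp3 was 4502 (WT) and 4046 (KO) in Treg and 17.1 (WT) and 40.8 (KO) in Tconv. Hpgd had 1 read in all 4 Treg WT libraries together and 0 in the other groups, so its loss could not be checked. In KO cells Xist stood at a mean of 15567 (Treg) and 10118 (Tconv), in WT cells at 1.84 and 1.67, and the Y-linked Ddx3y was at 0 in all KO libraries. All WT libraries were thus of male and all KO libraries of female cells, and the sample numbers in the labels (483 to 490 in WT, 574 to 581 in KO) part the same way, so sex, sample series and genotype cannot be told apart in any difference between KO and WT. Summed over 11 B cell markers, libraries ranged from 598 to 905 (WT) and 958 to 2037 (KO) among Treg, and from 173 to 226 (WT) and 116 to 477 (KO) among Tconv; Pax5 was at 0 in Treg KO, and 2 of 6 markers tested, H2-Aa and H2-Eb1, were higher there than in Treg WT.

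The results turn on heat-inducible members and on members of the endoplasmic reticulum, so the start sites are shown where they hold letters that heat shock factor and the endoplasmic reticulum stress factors are known to bind. The windows are from RefSeq on GRCm38.p6 and reach from 250 bases before to 50 after each start. Of the 71 genes 59 had one, and 12 did not and were not searched. Hspa8, Hsp90aa1, Hsp90ab1 and Hspa13 were among those without. The first motif searched, on both strands, was the head-to-head pair of heat shock units GAANNTTC, shown in capitals before the heat-inducible Hsp70 genes Hspa1a (chr17:34972223-34972290, minus strand) and Hspa1b (chr17:34959305-34959372, minus strand) and before Dnaja1 (chr4:40722314-40722381, plus strand), a J-domain partner of cytosolic Hsp70. The Hspa1a and Hspa1b stretches are the same in all 68 bases, and the whole 300-base windows differ at 4.
Hspa1a: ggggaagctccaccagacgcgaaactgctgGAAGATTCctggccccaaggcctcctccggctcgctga
Hspa1b: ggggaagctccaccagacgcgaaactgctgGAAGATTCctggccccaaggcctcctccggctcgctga
Dnaja1: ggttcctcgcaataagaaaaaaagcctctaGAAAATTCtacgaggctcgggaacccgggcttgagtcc

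Of 12 heat-inducible members with a window, 9 held GAANNTTC (75%), against 22% of the 59 members and 9.04% of all 27025 symbols with a window. The 12 are among the 59, and outside them the pair stood in Dnajb6, Dnajc27, Dnajc5g and Hspb6. The list is of genes known as heat-inducible, so its share describes the letters and tests nothing. A row of 3 units (GAA, TTC and GAA, each 2 bases apart), which contains that pair, stood in the windows of 4 members, Dnajb6, Hspd1, Hspe1 and Hsph1, and in 0.662% of all symbols. Hspe1 and Hspd1 are neighbours transcribed in opposite directions, and the same run of units, in capitals below (chr1:55088053-55088082, plus strand), stands 72 to 89 bases before the start of Hspe1 and, read from the other strand, in 1 of the 2 windows of Hspd1.
Hspe1: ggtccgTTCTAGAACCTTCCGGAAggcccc

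The next motif, also searched on both strands, was the endoplasmic reticulum stress element (CCAAT, any 9 bases, CCACG), found in 37 of the 27025 symbols (0.137%). Of the 59 members with a window, exactly 3 held it. These were Hspa5 (chr2:34772020-34772048, plus strand), Hsp90b1 (chr10:86705513-86705676, minus strand, 1 copy on each strand) and Dnajc3 (chr14:118937797-118937875, plus strand). A match in these windows is a description of letters and not evidence of binding.
Hspa5: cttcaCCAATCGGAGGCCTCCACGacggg
Hsp90b1: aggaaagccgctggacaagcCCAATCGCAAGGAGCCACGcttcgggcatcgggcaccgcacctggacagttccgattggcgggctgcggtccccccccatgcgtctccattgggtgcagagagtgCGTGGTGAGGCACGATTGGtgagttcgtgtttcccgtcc
Dnajc3: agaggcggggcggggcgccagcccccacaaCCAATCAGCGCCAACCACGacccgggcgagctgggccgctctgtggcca

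Together the 71 genes held 0.939 ± 0.120% of all normalized reads in Treg WT (SD, n = 4), 0.974 ± 0.0344% in Treg KO (n = 4), 1.02 ± 0.124% in Tconv WT (n = 3) and 0.892 ± 0.0451% in Tconv KO (n = 4). Levels below are normalized read counts. Per kb of the longest coding transcript, the order was led by the constitutive cytosolic pair, Hspa8 at 5387 and Hsp90ab1 at 4754 normalized reads per kb over the 15 libraries. Next came Hsp90b1, the Hsp90 of the endoplasmic reticulum, at 877, then Dnajc7, a J-domain protein that binds both Hsp70 and Hsp90, at 726, Hspa5 (BiP, the Hsp70 of that compartment) at 716 and the inducible Hsp90aa1 at 700. Dnajc8, a J-domain protein of the spliceosome, followed at 419 and Hsph1, an Hsp110 protein, at 412, and the mitochondrial chaperones Hspe1, Hspa9 and Hspd1 lay close together at 378, 369 and 320. The leading pair stood well apart from the rest, while the group means of Hspe1 alone, 269 to 511 per kb, span the levels of Hspa9 and Hspd1.

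**Figure D1:**
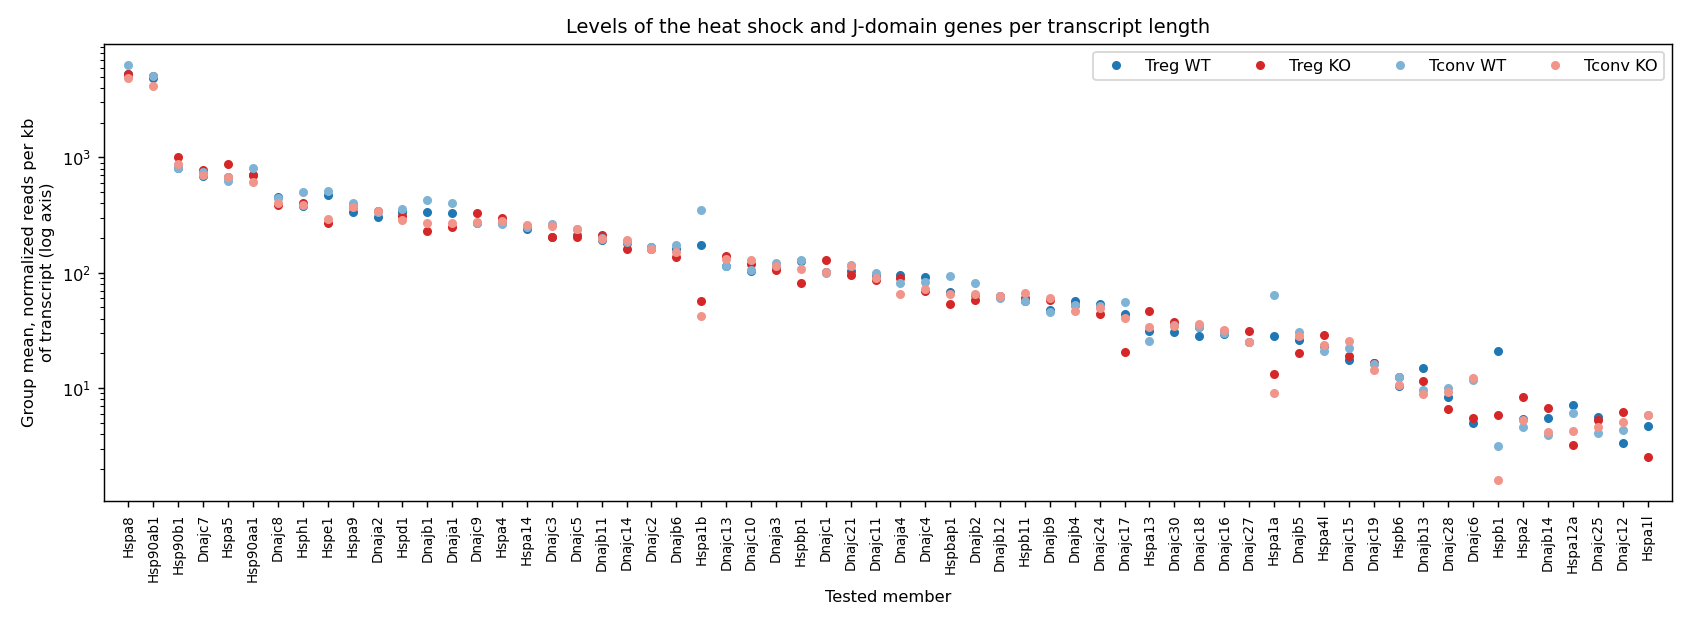
Mean level of each of the 62 tested members in the 4 groups, in normalized reads per kb of transcript on a log axis, ordered by the mean over 15 libraries; each point is 1 group. Hspa8 and Hsp90ab1 lead at 5387 and 4754, and the groups stand furthest apart at Hspa1a, Hspa1b and Hspb1.

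Small heat shock proteins were the scarce family. Of 6, 2 passed the filter on low values (at least 10 normalized reads in at least 3 libraries), Hspb1 and Hspb6. In all, 62 of the 71 genes passed and were tested, 39 of them J-domain genes. Dnajb8, Dnajc5g and Hspb7 had 0 reads in all 15 libraries, which allows up to 0.031 reads per M reads, by counting error only. The other members below the filter reached at most 5.80 (Hspa12b), 4.31 (Hspb9), 4.11 (Dnajb3), 3.50 (Dnajb7), 1.77 (Hspb8) and 0.690 (Hspb2).

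The heat-inducible members differed widely between libraries of the same group. Hspa1b, the stress-induced cytosolic Hsp70, had 977, 556, 173 and 231 normalized reads in the 4 Treg WT libraries, in the order of their sample numbers (484, 486, 488 and 490). The Tconv WT libraries, numbered 483, 485 and 487, had 1368, 1057 and 526. The KO libraries had 324, 215, 15.1 and 78.9 in Treg (574 to 580) and 212, 147, 69.0 and 50.6 in Tconv (575 to 581). In each of the 4 groups the library with the lowest sample number held the most Hspa1b, and the highest exceeded the lowest 5.6 times in Treg WT, 20.2 times in Treg KO, 2.6 times in Tconv WT and 4.1 times in Tconv KO. What the sample numbers stand for is not given in the labels.

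Hsph1 had 2274, 1636, 1195 and 645 in Treg WT and 2515, 1830 and 1359 in Tconv WT. Hsp90aa1 ran alike at 3235, 2461, 1944 and 1631 and at 3547, 2488 and 1976. Dnajb1, the main J-domain partner of inducible Hsp70, had 1382, 1054, 840 and 759 and then 1595, 1204 and 1064. In both WT cell types each of these genes was thus highest in the library of the lowest sample number and lowest in that of the highest. So were Dnaja1 (2475 against 1251 in Treg WT, 2789 against 1755 in Tconv WT), Hspa8 (15390 against 9410, 17510 against 13455) and Hspd1 (1014 against 645, 1035 against 699). The endoplasmic reticulum chaperone Hspa5 did not: it had 2497, 2736, 2340 and 2282 in Treg WT and 2237, 2416 and 2173 in Tconv WT. Within the 3 adjacent pairs of WT numbers (483 and 484, 485 and 486, 487 and 488) the Tconv library exceeded the Treg library each time for Hspa1a, Hspa1b, Hsph1, Hsp90aa1, Dnajb1, Dnaja1 and Hspa8, and for Hspa5 the Treg library was the higher each time.

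**Figure D2:**
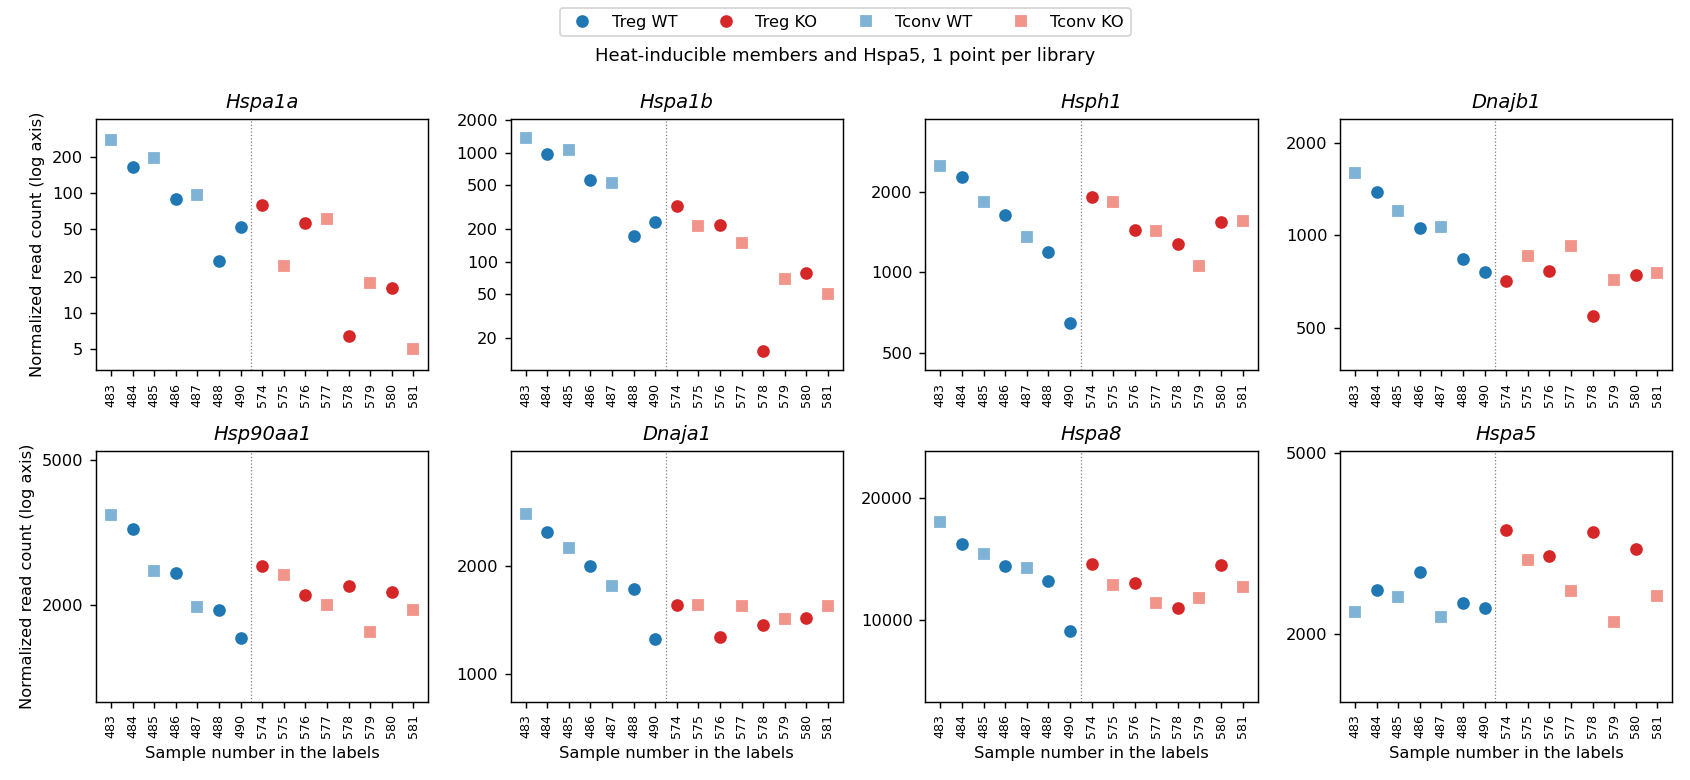
Normalized read count, on a log axis, of 7 heat-inducible members and of Hspa5 in the 15 libraries ordered by the sample number in the labels; 1 point is 1 library, circles are Treg, squares Tconv, and the dotted line parts WT from KO. Hspa1b runs from 1368 in library 483 to 15.1 in library 578, and Hspa5 keeps to 2173 to 2736 in all WT libraries.

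Of the 14 heat-inducible members tested, 11 were highest in the library of the lowest sample number in both Treg WT and Tconv WT (78.6%), against 8.77% of all genes tested (992 of 11314). The count was 3 of 10 for mitochondrial members (Hspa9, Dnajc15 and Hspd1, which is also on the heat-inducible list) and 0 of 8 for members of the endoplasmic reticulum. It was 0 of 13 for immediate early genes, which respond to handling of cells. Of these, Fos had 961, 837, 256 and 916 in Treg WT and 950, 963 and 367 in Tconv WT. Jun had 926, 884, 343 and 589 and then 652, 873 and 438. Both were lowest in libraries 488 and 487, which did not hold for all genes of the list. The part of handling was not tested. In KO 6 of the 14 heat-inducible members were highest in both libraries of the lowest numbers (42.9%, against 13.6% of all genes), and so were 5 of the 13 immediate early genes (38.5%), so there the heat-inducible members did not stand alone. Of the 8 endoplasmic reticulum members 1 was (12.5%), Hspa5, at 3382 in library 574 and 2912 in library 575, and of the 10 mitochondrial members 1 was (10.0%), Dnajc4. The lists were drawn up with the levels of Hspa1a and Hspa1b in these libraries known, so these shares describe the pattern and do not test it.

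On the log2(value + 1) scale the standard deviation within groups was 1.31 for Hspa1b and 1.28 for Hspa1a, above 99.3% and 99.2% of tested genes, where the median gene had 0.19. It was 0.50 for Hsph1, 0.31 for Hsp90aa1, 0.28 for Dnajb1 and 0.20 for Hspa8. Reads of Hspa1a and Hspa1b cannot be kept apart with certainty, since their transcripts agree over 2201 bases at 99.2% identity. This spread bears on the comparison of the genotypes. Hspa1b averaged 158 ± 138 in Treg KO and 484 ± 369 in Treg WT (n = 4 each) and did not pass in limma, with a log2 fold change of -1.98 ± 0.79 (SE, adjusted p = 0.083). In Tconv, KO averaged 120 ± 74.2 (n = 4) and WT 984 ± 426 (n = 3) with no overlap, and limma gave -3.15 ± 0.85 (adjusted p = 0.14). For Hspa1b in Tconv, edgeR (adjusted p = 0.047) and DESeq2 (0.025) on the whole reads passed the threshold. With the values of Hspa1a and Hspa1b summed, limma gave -1.87 in Treg (adjusted p = 0.096) and -3.12 in Tconv (adjusted p = 0.14).

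Treg of the knockout animals were then compared with Treg of the control animals, the contrast in the cells at which the Cre driver is aimed. Of 8 members of the endoplasmic reticulum 4 were higher in Treg KO, the mitochondrial co-chaperonin Hspe1 and the nuclear J-domain gene Dnajc17 were lower, and the abundant cytosolic Hspa8, Hsp90ab1 and Hsp90aa1 did not pass. Of the 62 members 14 passed an adjusted p of 0.05 in limma, 7 higher and 7 lower. Over all 11314 genes tested 21.5% passed, 10.4% higher and 11.1% lower, so the family as a whole passed at about the rate of all genes, and its median log2 fold change of -0.01 lay beside -0.00. Among the 39 J-domain genes 4 were higher and 4 lower. The members are described by role.

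Of the 8 members of the endoplasmic reticulum, 4 were higher and 0 lower, and the median log2 fold change was 0.30. Hspa5 had 3382, 2967, 3357 and 3083 normalized reads in the Treg KO libraries and 2497, 2736, 2340 and 2282 in Treg WT. Every KO library stood above every WT library, and the log2 fold change was 0.38 ± 0.09 (SE, limma, adjusted p = 0.0096). Hsp90b1, also called Grp94, had 2836, 2641, 3128 and 2719 in KO and 2335, 2281, 2423 and 2016 in WT. The groups again did not overlap (0.32 ± 0.08, adjusted p = 0.015).

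Hspa13, a small Hsp70-like protein of microsomes, had 205, 166, 237 and 183 in Treg KO against 130, 152, 137 and 106 in Treg WT. All KO values were higher (0.59 ± 0.16, adjusted p = 0.017). Dnajc1, a membrane J-domain protein that hands clients to Hspa5, had 692, 654, 825 and 690 in KO against 559, 552, 583 and 523 in WT, without overlap (0.36 ± 0.08, adjusted p = 0.0049). The other members of the compartment did not pass: Dnajb9 had 0.28 ± 0.14, Dnajc10 0.20 ± 0.08, Dnajb11 0.14 ± 0.07 and Dnajc3 -0.02 ± 0.08 as log2 fold changes. Dnajc3 holds the same stress element in its window as Hspa5 and Hsp90b1, printed above. Its levels were 936, 1047, 1097 and 1098 in KO and 1029, 1032, 1157 and 1027 in WT, so the groups overlapped.

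Summed over the 8 genes, Treg libraries ranged from 8575 to 9909 (KO) and from 7048 to 7752 (WT), and Tconv libraries from 7418 to 8943 (KO) and from 7302 to 7857 (WT). Treg KO thus stood above Treg WT in every library, while the Tconv groups overlapped. Hspa5 and Hsp90b1 were the largest parts of the sum (means of 3197 and 2831 out of 9140 in Treg KO). The sum therefore largely repeats the results of these genes. B cell markers, given above, were also higher in Treg KO, where H2-Eb1 was 72.7 ± 46.5 against 9.78 ± 4.26 in Treg WT, and the part of B cells in the result was not tested. In bulk RNA a change in the share of a cell type and a change in level per cell cannot be told apart.

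Fold changes in Treg KO also ran with the GC content of transcripts over all genes, from a median log2 fold change of 0.20 in the fifth lowest in GC (31.0 to 44.1%) to -0.32 in the highest (55.7 to 69.2%). Hspa13 (39.8% GC) and Hsp90b1 (43.8%) lie in the lowest range, Hspa5 (45.6%) in the next (44.1 to 48.1%, median 0.13) and Dnajc1 (48.8%) in the middle one (median 0.03). With the GC trend removed, the log2 fold change was 0.24 for Hspa5, 0.16 for Hsp90b1, 0.39 for Hspa13 and 0.31 for Dnajc1. In that setting Hspa5 (adjusted p = 0.062), Hsp90b1 (0.13) and Hspa13 (0.051) no longer passed in limma and Dnajc1 did (0.0072). Without Treg WT replicate 4, Hsp90b1 (adjusted p = 0.053) and Hspa13 (0.058) missed the threshold.

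**Figure D3:**
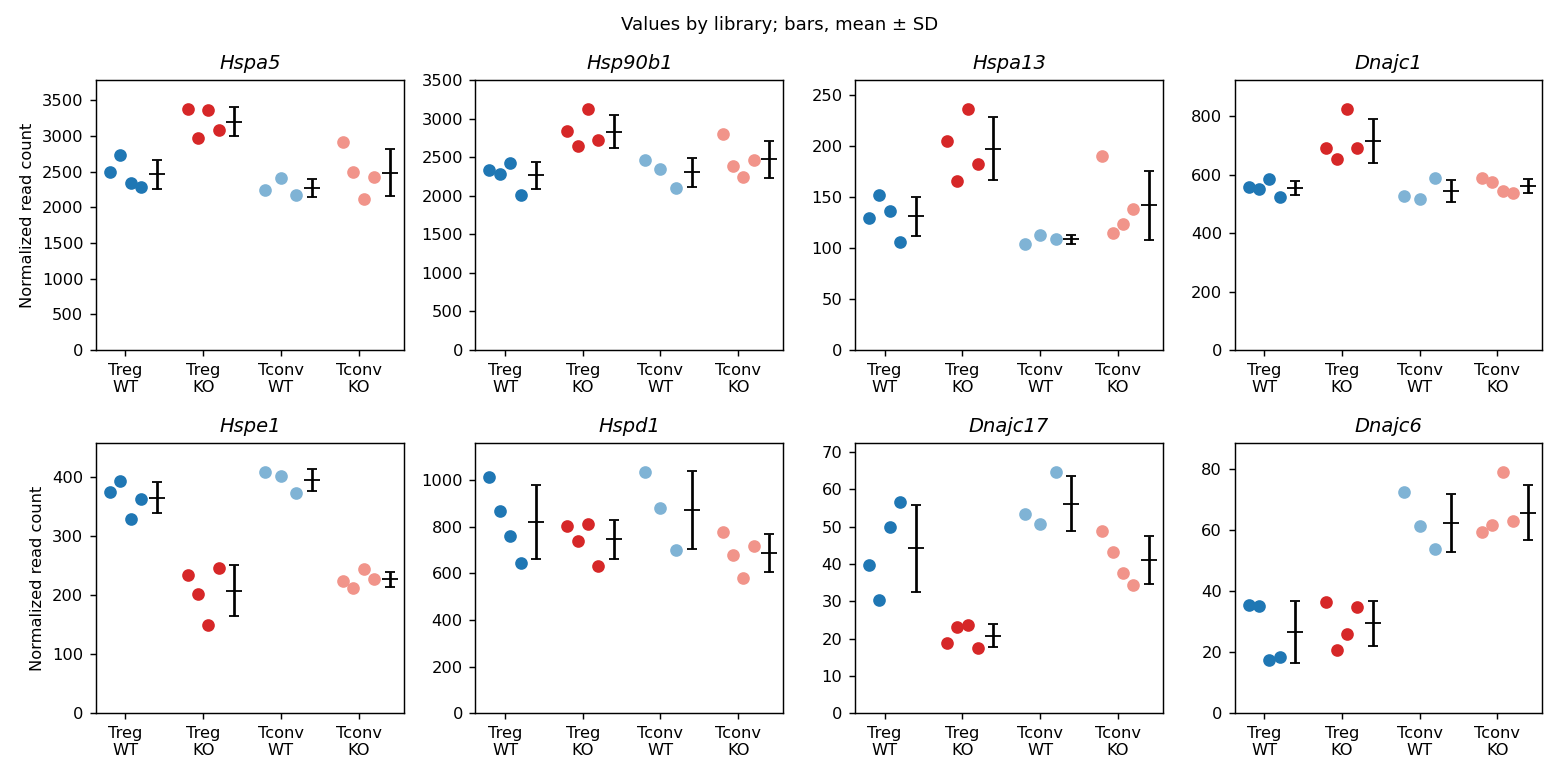
Normalized read count of 8 members in each library of the 4 groups, from 0 on a linear axis; points are libraries and bars are mean ± SD. All 4 Treg KO libraries lie above the Treg WT libraries for Hspa5, Hsp90b1, Hspa13 and Dnajc1 and below them for Hspe1 and Dnajc17, and Dnajc6 lies lower in Treg than in Tconv in both genotypes.

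Among genes outside the family that serve the same compartment or the unfolded protein response, 7 of 20 were higher in Treg KO and 1 was lower, the median of all 20 being 0.07. Sel1l, a part of the machinery that removes misfolded protein, averaged 821 ± 62.5 in KO and 657 ± 21.5 in WT (log2 fold change 0.32 ± 0.06, adjusted p = 0.0043). The lectin chaperone Canx averaged 1774 ± 164 against 1463 ± 59.0 (0.27 ± 0.07, adjusted p = 0.011). The gene that fell was Ddit3, a transcription factor of prolonged stress, and its groups did not overlap (-0.43 ± 0.10, adjusted p = 0.0099). The folding genes Calr, Canx, Pdia3, Pdia4 and P4hb rose while Ddit3 fell, so the list did not move one way.

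Hspe1, the lid of the mitochondrial chaperonin (chromosome 1, 55088132 to 55091307, plus strand, GRCm38, ENSMUSG00000073676.4), was the member with the smallest p. It had 234, 203, 149 and 247 normalized reads in Treg KO and 376, 393, 330 and 364 in Treg WT. No KO library reached the lowest WT library, and the log2 fold change was -0.83 ± 0.13 (limma, adjusted p = 6.8e-04). Its partner Hspd1, which forms the barrel, had 805, 739, 814 and 633 in KO and 1014, 866, 760 and 645 in WT, overlapped and did not pass (-0.12 ± 0.14, adjusted p = 0.57). Hspe1 per Hspd1 was 0.284 ± 0.0854 in Treg KO and 0.456 ± 0.0805 in Treg WT (SD, n = 4 each), as a ratio of normalized reads that is not corrected for length.

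The annotated spans of Hspd1 and Hspe1 share 112 bases at their starts, and as the labels state no strand in the counting, reads there cannot be assigned by strand. Hspe1 also shares 515 bases at 99.0% identity with AC117239.2, and Hspd1 shares 1722 bases at 99.0% with the pseudogene Hspd1-ps3. Of the 10 mitochondrial members Hspe1 alone passed, and the list had a median log2 fold change of -0.10. Hspa9, the mitochondrial Hsp70, averaged 1136 ± 71.2 in KO and 1032 ± 88.1 in WT (0.14 ± 0.08, adjusted p = 0.20).

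Dnajc17, a nuclear J-domain protein linked to splicing, ranged from 17.4 to 23.7 in Treg KO (mean 20.7 ± 3.10) and from 30.3 to 56.7 in Treg WT (mean 44.2 ± 11.6), on 11 to 19 reads a KO library. All KO values were lower (log2 fold change -1.03 ± 0.20, limma, adjusted p = 0.0037), on a scale of log2(value + 1) that understates changes of low genes. The pseudogene Gm6257 matches Dnajc17 over 912 bases. Dnajc8, another J-domain protein of the spliceosome, fell from 636 ± 35.0 to 538 ± 15.8 (-0.24 ± 0.08, adjusted p = 0.041). It lost the call without any 1 of the 8 libraries, up to an adjusted p of 0.11. The call also ended with reads thinned to the smallest library (0.34) or with the length trend removed (0.48). Dnajc14 fell from 761 ± 12.4 to 680 ± 15.2 (-0.16 ± 0.05, adjusted p = 0.036). Leaving out any 1 WT library, or KO replicate 1 or 4, ended that call (up to 0.086), and the transcripts of Dnajc14 overlap those of Ormdl2 over 1114 bases.

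J-domain genes also stood among the higher ones. Dnajc9, which chaperones histones H3 and H4, had 535, 478, 590 and 560 in Treg KO and 413, 460, 450 and 431 in Treg WT. The groups did not overlap (0.30 ± 0.08, adjusted p = 0.014). Dnajc13, a protein of endosomes, had 1097, 996, 1323 and 1086 against 903, 942, 969 and 833, also apart (0.30 ± 0.08, adjusted p = 0.021), and lost the call with the GC trend removed (0.10) or without Treg WT replicate 1 or 4 (up to 0.070). The scarce Dnajc12, at 18.7 ± 3.87 against 10.1 ± 3.57, overlapped between groups (0.86 ± 0.27, adjusted p = 0.034) and lost the call with reads thinned to the smallest library (0.37) or when WT replicate 1, 3 or 4, or KO replicate 1 or 4, was left out (up to 0.11).

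Of the 14 heat-inducible members tested, 0 were higher, 3 were lower in Treg KO (Hspe1, Hspb1 and Dnajb1), and the median log2 fold change was -0.11. Dnajb1 had 711, 769, 549 and 744 in KO and 1382, 1054, 840 and 759 in WT. The groups overlapped only at the WT library of the highest sample number (-0.51 ± 0.17, adjusted p = 0.045). Leaving out WT replicate 1 or 2, or KO replicate 1, 3 or 4, ended the call (up to 0.15). Dnajb1 also missed with the GC trend removed (0.085) or with only the compared groups fitted (0.077). Hspb1, also called Hsp27, rested on 40, 22, 24 and 24 reads in the WT libraries and 7, 4, 2 and 2 in the KO libraries. Its normalized values, 19.5 ± 6.20 and 5.50 ± 3.24, did not overlap (-1.73 ± 0.59, adjusted p = 0.048). Leaving out any 1 of the WT libraries, or KO replicate 2, 3 or 4, ended the call (up to 0.13). Hspb1 also missed with thinned reads (0.27), a pseudocount of 0.1 (0.22), or the GC trend (0.19) or length trend (0.083) removed. The Hsp70 partner Hspbp1 fell from 201 ± 35.0 to 129 ± 43.6 with overlap (-0.68 ± 0.22, adjusted p = 0.040), and the call was lost with the GC trend removed (0.29) or when WT replicate 1, 3 or 4, or KO replicate 1 or 3, was left out (up to 0.12). The 3 Hsp110 genes Hsph1, Hspa4 and Hspa4l had log2 fold changes of 0.23 ± 0.30, 0.12 ± 0.08 and 0.30 ± 0.21 and overlapped between groups.

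The factor Hsf1 itself averaged 444 ± 64.8 in Treg KO and 515 ± 45.9 in Treg WT and did not pass (-0.22 ± 0.10, adjusted p = 0.13). Hsf4, a relative of Hsf1, was low and fell from 24.0 ± 6.38 to 4.88 ± 4.03 (-2.48 ± 0.53, adjusted p = 0.0058). Of 18 Hsp90 co-chaperones 2 were higher and 1 lower, the kinase adaptor Cdc37 (-0.36 ± 0.11, adjusted p = 0.035). Of 17 Hsp70 partners 0 were higher and 1 was lower, Bag6 (-0.48 ± 0.12, adjusted p = 0.014), and of 14 subunits of the cytosolic chaperonin and of prefoldin 2 were higher and 1 lower. The medians of these lists were -0.04, 0.01 and 0.11, beside -0.00 over all genes.

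Without both WT libraries of the lowest sample number (Treg WT replicate 1 and Tconv WT replicate 1, a setting chosen after seeing the data), 5 members passed in Treg, 3 higher and 2 lower: Dnajc1 (adjusted p = 0.024), Hspa5 (0.039), Hsp90b1 (0.042), Hspe1 (0.0070) and Dnajc17 (0.019). Without Treg WT replicate 1 alone or replicate 4 alone 7 members passed, and without replicate 3 there were 9. Counts over all genes in these settings are not given here. Of the 14 called members, Hspe1, Dnajc1 and Dnajc9 passed under every change of tool, scale, filter or trend tried and with any 1 library left out, and so did Dnajc17 wherever it was tested (with a filter at a mean of 50 it was not). Dnajc9 missed without both first WT libraries (0.068).

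Tconv from the knockout animals were compared with Tconv of the control animals. Hspe1 was again lower, and it was the member that passed. Its 4 Tconv KO libraries had 224, 212, 244 and 228 and the 3 Tconv WT libraries 409, 403 and 374. The groups stood well apart (log2 fold change -0.80 ± 0.14, limma, adjusted p = 0.011). In all 1 of 62 members passed, against 0.681% of all genes tested (0.389% lower). Of the 62, 12 had an unadjusted p under 0.05 in limma, beside 1358 of all 11314 genes. Without Tconv WT replicate 1 or replicate 2 no member passed, Hspe1 reaching an adjusted p of 0.094. By edgeR 2 members passed, Hspe1 and Hspa1b, and by DESeq2 4, with Dnajb1 and Hspbap1 added, all lower in KO.

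Apart from Hspe1, heat-inducible members in Tconv did not pass in limma, but most lay below WT: 13 of 14 had a negative log2 fold change, with a median of -0.37 against 0.00 over all genes. Dnajb1 averaged 814 ± 93.8 in KO and 1288 ± 275 in WT with no overlap (-0.65 ± 0.19, adjusted p = 0.16). Hspa8 averaged 11654 ± 596 against 15171 ± 2098, also apart (-0.37 ± 0.15, adjusted p = 0.32). The Tconv WT group holds library 483 (Tconv WT replicate 1), the highest of all 15 for Hspa1a, Hspa1b, Hsph1, Dnajb1, Hsp90aa1, Dnaja1 and Hspa8. Without it 0 members passed, as without Tconv WT replicate 2, and the call lost each time was Hspe1.

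The endoplasmic reticulum members did not pass in Tconv. Of the 8, 6 had a positive log2 fold change, with a median of 0.11. Over all 11314 genes 5715 had one, with a median of 0.00. Every KO library stood above every WT library for Dnajb9 (0.42 ± 0.15, adjusted p = 0.24), Dnajc10 (0.28 ± 0.09, 0.18) and Hspa13 (0.36 ± 0.17, 0.41). How many of all genes stood apart in this way is not given here, so this only describes these genes. The log2 fold changes of Dnajb9 and Dnajc10 were smaller in Treg (0.28 and 0.20), and those of the other 6 were larger there. Hspa5 had 2912, 2490, 2123 and 2422 in Tconv KO and 2237, 2416 and 2173 in WT, so the groups overlapped (0.12 ± 0.10, adjusted p = 0.64). Hspe1 per Hspd1 was 0.335 ± 0.0586 in Tconv KO (n = 4) and 0.462 ± 0.0702 in Tconv WT (n = 3). Dnajc17 averaged 41.0 ± 6.42 against 56.2 ± 7.42, apart, without passing (-0.45 ± 0.22, adjusted p = 0.43). Of the prefoldin subunits Pfdn6 fell in Tconv (-0.40 ± 0.08, adjusted p = 0.047), from 195 ± 5.92 to 148 ± 5.18, and in Treg it fell from 189 ± 12.4 to 145 ± 6.41 (-0.38 ± 0.08, adjusted p = 0.0048).

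**Figure D4:**
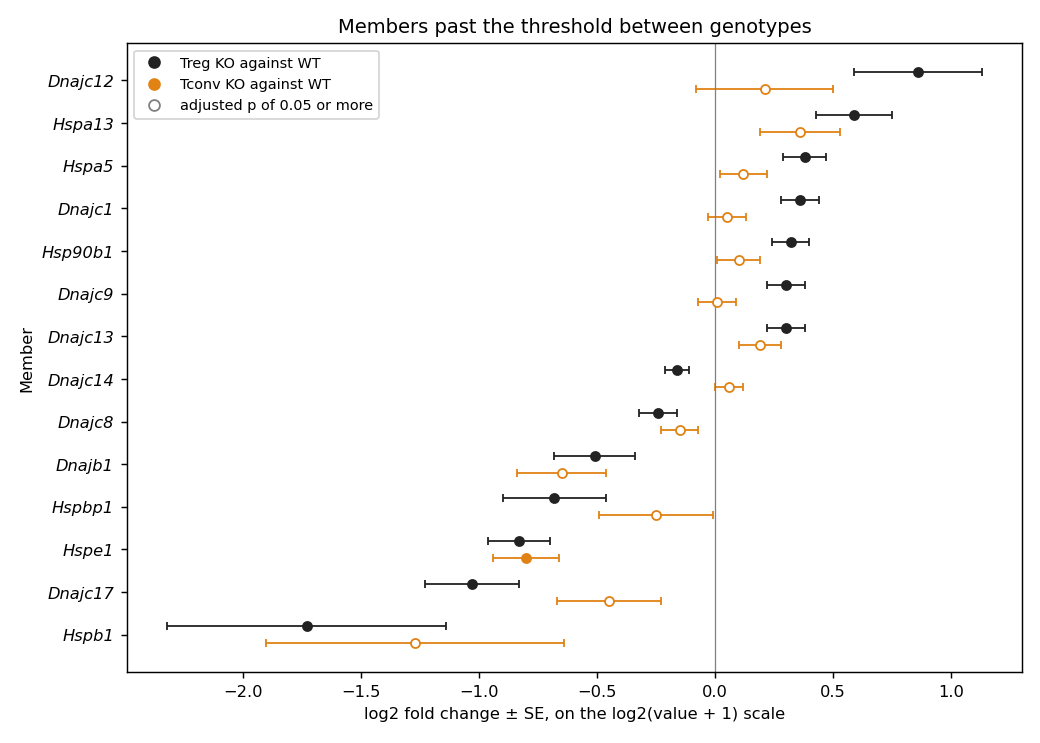
Log2 fold change ± SE, KO against WT, of the 14 members that passed in Treg or Tconv; filled points passed an adjusted p of 0.05 and open points did not. Hspe1 lies at -0.83 in Treg and -0.80 in Tconv. The endoplasmic reticulum members shown (Hspa5, Hsp90b1, Hspa13 and Dnajc1) lie further right in Treg. That difference did not pass the test between cell types.

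Whether the genotype difference itself differed between Treg and Tconv was tested as an interaction in the same fit. By limma 0 of 62 members passed, as by edgeR and DESeq2, against 0.150% of all genes. Of the 62, 5 had an unadjusted p under 0.05 in limma, beside 963 of all 11314 genes. The closest were Dnajc14 (-0.22 ± 0.08 on the log2 scale, adjusted p = 0.42), Dnajc1 (0.32 ± 0.11, adjusted p = 0.42) and Dnajc9 (0.29 ± 0.11, adjusted p = 0.48). For Hspa5 the difference was 0.26 ± 0.13 (adjusted p = 0.62), for Dnajc17 -0.58 ± 0.30 (adjusted p = 0.62) and for Hspe1 -0.04 ± 0.18 (adjusted p = 0.97). A p that misses the threshold does not show that the cell types responded alike.

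Treg and Tconv were compared within each genotype. In WT, 4 of 62 members passed, 1 higher and 3 lower in Treg, against 18.1% of all genes tested, 10.0% higher and 8.06% lower. The median of the members was -0.06 against -0.02 over all genes. In KO 15 passed, 7 higher and 8 lower, against 31.4% of all genes, 15.8% higher and 15.6% lower, with a median of -0.02 beside -0.01. Each of these comparisons shares its libraries with 1 of the genotype comparisons.

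Dnajc6, known as auxilin, which frees clathrin from coated vesicles, was lower in Treg in both genotypes. It had 35.6, 35.2, 17.4 and 18.6 in Treg WT and 72.3, 61.1 and 53.6 in Tconv WT. The groups did not overlap (log2 fold change -1.26 ± 0.27, limma, adjusted p = 0.0037). In KO it had 36.3, 20.6, 25.9 and 34.8 in Treg and 59.4, 61.5, 78.9 and 62.8 in Tconv, again apart (-1.16 ± 0.25, adjusted p = 0.0026). With reads thinned to the smallest library the WT difference in Dnajc6 had an adjusted p of 0.27.

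Dnajc3, the lumenal J-domain protein with a stress element, was also lower in Treg: 1029, 1032, 1157 and 1027 in Treg WT against 1430, 1400 and 1274 in Tconv WT. No Treg library reached the Tconv level (-0.37 ± 0.09, adjusted p = 0.0065), and the difference in KO was -0.33 ± 0.08 (adjusted p = 0.0050). Without both first WT libraries the WT call on Dnajc3 was lost (0.091). Dnajc15, a J-domain protein of the inner mitochondrial membrane, had a WT mean of 108 ± 6.96 in Treg and 137 ± 14.3 in Tconv (-0.34 ± 0.11, adjusted p = 0.049). That call was lost without Tconv WT replicate 1 or 3 or Treg WT replicate 2, 3 or 4 (up to 0.20). With reads thinned to the smallest library it was lost too (0.41). In KO it averaged 118 ± 12.4 and 157 ± 11.9 (-0.41 ± 0.11, adjusted p = 0.0080), and there the groups were apart and the call held in each alternative.

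Hspb1 was the member that stood higher in Treg in both genotypes. In WT its mean was 19.5 ± 6.20 in Treg and 2.93 ± 0.442 in Tconv, with no overlap (2.34 ± 0.63, adjusted p = 0.017), and with a pseudocount of 0.1 the adjusted p was 0.15. Without Treg WT replicate 1, Tconv WT replicate 1 or Tconv WT replicate 2 the call was lost, up to an adjusted p of 0.059. In KO it averaged 5.50 ± 3.24 and 1.48 ± 2.96 with overlap (1.88 ± 0.59, adjusted p = 0.023). The KO call was lost without Treg KO replicate 1 or Tconv KO replicate 1, 2 or 4 (up to 0.071). There 3 of 4 Tconv libraries were at 0 and Tconv KO replicate 3 at 5.91. Hspb1 has a near copy, Gm9817, over 477 bases at 99.8% identity.

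**Figure D5:**
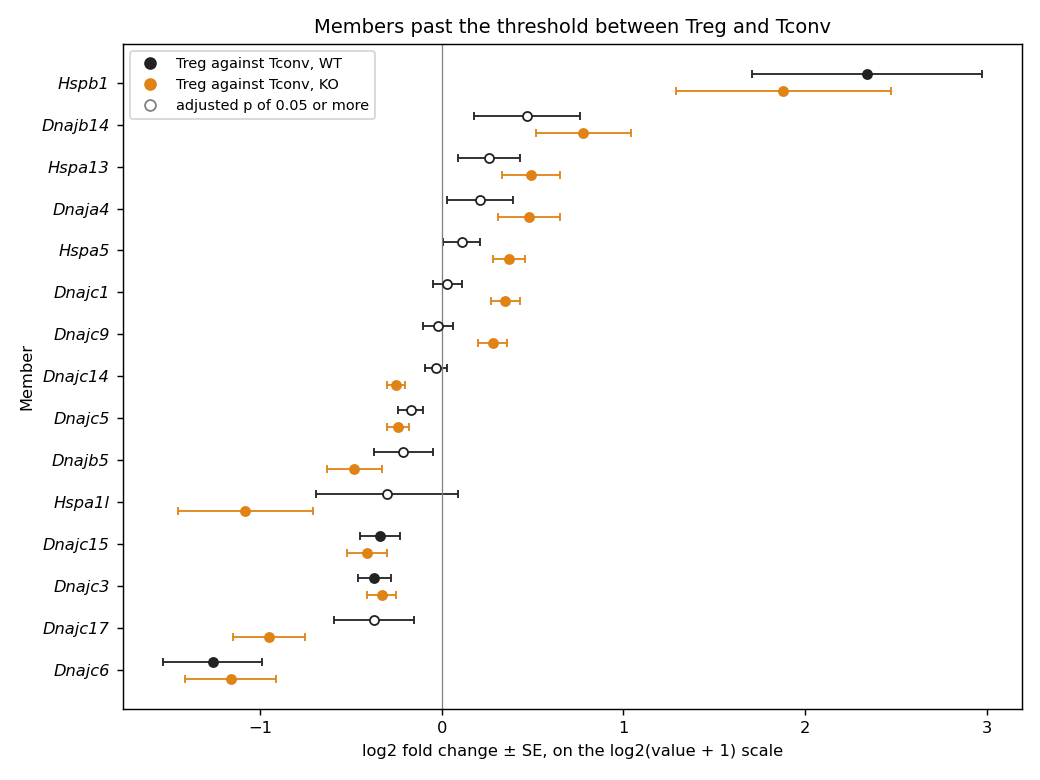
Log2 fold change ± SE, Treg against Tconv, of the 15 members that passed in WT or KO; filled points passed an adjusted p of 0.05 and open points did not. Dnajc6 lies lowest at -1.26 in WT, Hspb1 highest at 2.34, and Hspa5, Dnajc1 and Hspa13 passed in KO.

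Several members passed between the cell types in KO and not in WT, a difference that the interaction test above did not call. Hspa5 (0.37 ± 0.09, adjusted p = 0.0054), Hspa13 (0.49 ± 0.16, adjusted p = 0.026), Dnajc1 (0.35 ± 0.08, adjusted p = 0.0027) and Dnajc9 (0.28 ± 0.08, adjusted p = 0.013) were higher in Treg. So were Dnaja4 (0.48 ± 0.17, adjusted p = 0.043) and Dnajb14 (0.78 ± 0.26, adjusted p = 0.036). The groups overlapped for Hspa13, Dnajc9, Dnaja4 and Dnajb14. Dnaja4 lost the call without Treg KO replicate 1, 2 or 4 or Tconv KO replicate 3 (up to 0.14). Dnajb14 lost it without Treg KO replicate 1, 3 or 4 or Tconv KO replicate 2 (up to 0.090). Hspa13 lost it without Treg KO replicate 1 or 3 or Tconv KO replicate 2, 3 or 4 (up to 0.085). Lower in Treg KO than in Tconv KO were Dnajc17 (-0.95 ± 0.20, adjusted p = 0.0024), Dnajc14 (-0.25 ± 0.05, adjusted p = 0.0017), Dnajc5, the cysteine string protein of secretory vesicles (-0.24 ± 0.06, adjusted p = 0.0076), Dnajb5 (-0.48 ± 0.15, adjusted p = 0.023) and Hspa1l (-1.08 ± 0.37, adjusted p = 0.034). The groups of Dnajb5 and Hspa1l overlapped as well. Dnajb5 lost the call without Treg KO replicate 3 or Tconv KO replicate 3 or 4 (up to 0.079), and with thinned reads (0.17). Hspa1l lost it without Treg KO replicate 4 or Tconv KO replicate 2, 3 or 4 (at most 0.12 in any setting). With only these groups fitted, Dnajc9 (adjusted p = 0.073), Dnaja4, Dnajb14, Dnajb5, Hspa13, Hspa1l and Hspb1 (up to 0.13) missed the threshold. With adjacent sample numbers as a block, a setting chosen after seeing the data, 18 members passed in KO, 9 higher and 9 lower in Treg. These were the 15 and with them Hsp90ab1, Hsp90aa1 and Dnajb1. The count over all genes in that setting is not given here. Dnajc5 had 1275, 1288, 1437 and 1387 in Treg KO and 1571, 1493, 1605 and 1683 in Tconv KO, with no overlap.

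Among the partners of the endoplasmic reticulum members, Xbp1, the transcription factor of the unfolded protein response, was higher in Treg in both genotypes: 435 ± 24.7 against 265 ± 15.3 in WT (log2 fold change 0.71 ± 0.10, adjusted p = 9.9e-05) and 467 ± 29.4 against 296 ± 42.5 in KO (0.66 ± 0.09, adjusted p = 6.5e-05). The disulfide isomerase Pdia3 was higher as well (0.36 ± 0.08 in WT, adjusted p = 0.0066), and the stress sensor kinase Eif2ak3 was lower (-0.54 ± 0.12 in WT, adjusted p = 0.0038). Of the 20 genes of this list 4 were higher and 1 lower in WT, and 7 higher and 1 lower in KO. The 8 members of the compartment had 0 higher and 1 lower in WT, Dnajc3, and 3 higher and 1 lower in KO. B cell markers were also higher in Treg than in Tconv, 3 of 6 tested in WT and 5 of 6 in KO, and Cd22 ran the other way in WT (94.9 ± 22.5 in Treg, 157 ± 28.0 in Tconv, adjusted p = 0.27). Of the markers of CD8 T cells and NK cells, 5 of 7 tested were lower in Treg in WT (Klrb1c, Klrd1, Nkg7, Prf1 and Eomes). In KO 6 of 7 were, with Gzma added. Cd8b1 did not follow, at 60.8 ± 6.39 in Treg WT and 59.4 ± 11.4 in Tconv WT. In KO it had 73.3 ± 20.9 in Treg and 67.4 ± 13.9 in Tconv. Summed over that list, levels were 210 to 269 (WT) and 220 to 289 (KO) in the Treg libraries. In the Tconv libraries they were 813 to 1008 (WT) and 806 to 2099 (KO). Ncr1 was at 0 in Treg of both genotypes and reached at most 0.527 (WT) and 0.556 (KO) in Tconv. The myeloid marker Itgam, the 1 of its list that was tested, was also lower in Treg in both. The part of these cells in the differences between Treg and Tconv was not tested.

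In WT the heat-inducible list had 1 call higher, Hspb1, and 0 lower, with a median of -0.16, and in KO 2 higher, Hspb1 and Dnaja4, and 0 lower, with a median of 0.15. The cytosolic Hsp90 genes did not pass in WT: Hsp90ab1 had 12201 ± 1851 in Treg and 12658 ± 2313 in Tconv, and Hsp90aa1 2318 ± 701 and 2670 ± 801, and the groups overlapped. In KO Hsp90ab1 had 12720 ± 547 in Treg and 10512 ± 502 in Tconv without overlap and still missed the threshold (0.28 ± 0.11, adjusted p = 0.077). With adjacent sample numbers as a block, Hsp90ab1 (0.28, adjusted p = 0.0056), Hsp90aa1 (0.19, 0.046) and Dnajb1 (-0.24, 0.020) passed in KO, and within each of the 4 pairs Hsp90aa1 was higher and Dnajb1 lower in Treg. Hspa14, an Hsp70 linked to the ribosome, was the steadiest gene with a heat shock name within groups, with a log2 standard deviation of 0.05 and means of 430 ± 8.13 (WT) and 460 ± 20.5 (KO) in Treg, and of 447 ± 10.3 (WT) and 466 ± 18.9 (KO) in Tconv.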

How the data were processed

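The 15 libraries were made with the TruSeq RNA kit of Illumina, per the labels. Reads were processed with TopHat on the build mm10, per the submitters' processing notes. Which tool counted the reads, on which annotation and strand, was not given in the sources used here. For 17594 genes the table gives a normalized signal as the authors deposited it: 100% of the values were whole multiples of 1 step per library within a tolerance of 0.001, so they are read counts divided by 1 factor per library and whole reads were recovered. Depth was 2.64 to 11.1 M reads a library.

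Values were analysed as log2(value + 1) with limma 3.58.1 in R 4.3.3. The 11314 genes with at least 10 in at least 3 libraries entered 1 linear model with 4 group means over all 15 libraries, with a trended spread and Benjamini-Hochberg adjustment over all genes tested, two-sided. Members that passed an adjusted p of 0.05, at most 8 a direction, and members of the heat-inducible, endoplasmic reticulum and mitochondrial lists were described in full, and up to 3 genes of each list of partners. The members and lists were chosen with earlier results of these data known. The fit was tested on simulated data. A list of Hsf1 targets outside the family is not reported here. Alternatives were edgeR 4.0.16 and DESeq2 1.42.0 on whole reads, another pseudocount (8 or 0.1), no filter or a filter at a mean of 50, TMM scaling, separate fits of the compared groups, reads thinned to the smallest library, removal of a trend on GC content or on transcript length, Hspa1a and Hspa1b summed, and each library left out. Positions, lengths and GC came from GENCODE vM21 on GRCm38 (matched by symbol for 17347 genes, 695 of them by an older symbol), promoter windows from RefSeq on GRCm38.p6, and near copies from blastn 2.17.0 (at least 95% identity over 300 bases). Replicates were numbered in accession order. Adjacent sample numbers were tried as a block: deviations from group means correlated within pairs over 11314 genes at 0.21 to 0.54 in KO and 0.02 to 0.21 in WT. Figures used matplotlib 3.10.9.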

Additional observations from a re-analysis of the deposited data

Results flagged for a closer look

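In groups of 4 libraries, 8 of 186 sets of member values (4.30%) held 1 library far from the other 3, while chance flags about 1 in 20 groups. Dnaja1 was 1421 in Tconv KO replicate 3 against 1538 to 1557 in the others, and Hspb1 was 5.91 there against 0. In Treg KO replicate 3 Dnajb12 was 164 against 197 to 199 and Dnajc24 was 28.0 against 57.5 to 63.1. Dnajc16 was 235 in Treg KO replicate 2 against 170 to 175. In Treg WT replicate 1 Dnajb4 was 186 against 119 to 130 and Dnajc15 was 118 against 103 to 105. Dnajc3 was 1157 in Treg WT replicate 3 against 1027 to 1032.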

How the results depend on the processing

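A block by adjacent sample numbers, 1 Treg and 1 Tconv library each, was chosen after seeing the data; a block cannot be fitted between genotypes, since no pair spans them. With this replicate block Treg WT against Tconv WT called 4 members, where Dnajb1 passed (-0.25, adjusted p = 0.049) and Dnajc15 did not (0.068), Treg KO against Tconv KO called 18 and the interaction 0. It changed no other call than these and those given above for KO. In KO the pairs correlated at 0.21 to 0.54, and the Tconv libraries correlated with other Treg KO libraries at no more than 0.10. The WT pairs of Tconv 483 (0.14, against 0.03) and 485 (0.21, against -0.05) also exceeded other pairings. In WT 1 of the 3 pairs correlated at 0.02, below another pairing of that Tconv library (0.09), so there the numbers are at most a hint of pairing. The labels state no pairing, and the main fit used none. No member reversed its direction among called values in the settings run. Counted over all members, Treg KO against Treg WT called 14. The count was 9 with only the groups compared, 8 with the GC trend removed (2 higher, 6 lower), 7 to 14 with 1 library left out and 5 without both first WT libraries. For Tconv KO against Tconv WT it was 1, with 2 by edgeR, 4 by DESeq2, 0 to 1 with 1 library left out and 0 without both first WT libraries. For Treg WT against Tconv WT it was 4, with 7 by DESeq2, 2 at a mean of at least 50, 10 with only the groups compared, 7 with the GC trend removed, 2 to 5 with 1 library left out and 1 without both first WT libraries. For Treg KO against Tconv KO it was 15, with 8 when only the groups compared were fitted and 11 to 16 with 1 library left out. The interaction was at 0 in each setting run. The cause of these changes was not tested. Counts over all genes in these alternative settings are not given here, so the changes cannot be read as particular to the members. Members with under 50 normalized reads, such as Hspb1, Dnajc12 and Hspa1l, rest on few reads in the shallow KO libraries, and a lack of a call there was not distinguishable from too little depth.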
